A study of Homo sapiens with 20 samples.

Results

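The genes described here are NF-kB targets together with cytokines and chemokines, 38 genes chosen by symbol out of 25411 in the count files (CXCL8 is listed there as IL8). All 38 were present: 9 chemokines, 7 cytokines, 3 colony-stimulating factors, 5 NF-kB subunits, 6 inhibitors and feedback genes, 3 survival and signalling genes, and 5 adhesion or effector genes. They were measured by RNA sequencing in 20 libraries of BEAS-2B, an immortalised human bronchial epithelial line grown in Dulbecco's medium, in 7 groups by their titles. The 3-day arm holds Ni_3D (n = 2, in nickel chloride), Ni_3D+14D (n = 2, titled as 3 days and 14 days more, with no statement of whether nickel was present in those 14 days) and the unexposed Control_3D (n = 4). The 6-week arm holds Ni_6W (n = 2, in nickel chloride), Ni_6W+2W (n = 2, then washed and kept nickel-free for 2 weeks), Ni_clone (n = 6, 1 library from each of 6 single colonies expanded without nickel) and the unexposed Control_6W (n = 2). The labels give no nickel concentration per library except for the cells that gave the clones, where they state 100 mM; that unit could not be checked here and may be an error. Cloning, time in culture and past exposure cannot be told apart in the clones, and each clone descends from 1 cell. The labels do not say whether replicates came from separate cultures; a p-value here speaks only of the scatter among these libraries, and that may be technical.

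NF-kB is a family of dimeric transcription factors built from RELA, RELB, REL and the proteins encoded by NFKB1 and NFKB2. In resting cells the dimers are held in the cytoplasm by inhibitors such as NFKBIA, and signals from tumour necrosis factor, interleukin-1 or Toll-like receptors free them; a slower non-canonical branch runs through the kinase MAP3K14 and the processing of NFKB2. In airway epithelium the targets include chemokines that draw neutrophils and monocytes, cytokines of the interleukin-6 family, and feedback genes such as NFKBIA and TNFAIP3 that end the signal.

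The promoters of 6 genes are shown first, because most of the chemokines and feedback genes to which the results return hold a common element. Sequences of the 250 bases before the start were found for 31 of the 38 genes in the RefSeq promoter table (GRCh38.p14); those of CCL2, CCL5, LIF, CSF1, CSF3, NFKBIE and RELB were not used here. Capitals mark matches to the kappaB consensus GGGRNNYYCC (R for A or G, Y for C or T, N for any base) on either strand, or, in CXCL8, to the AP-1 element TGANTCA. The CXCL8 window also holds TGGAATTTCC, which differs from that consensus only in its first base and stays in small letters. The ICAM1 window, not shown, holds TGGAAATTCC and was likewise counted as no match. Whether such near matches bind NF-kB was not tested. The CXCL1 window is chr4:73869143-73869392 on the plus strand and that of CXCL2 chr4:74099196-74099445 on the minus strand. IL6 is at chr7:22726950-22727199 (plus), NFKBIA at chr14:35404750-35404999 (minus), TNFAIP3 at chr6:137867009-137867258 (plus) and CXCL8 at chr4:73740319-73740568 (plus).
CXCL1: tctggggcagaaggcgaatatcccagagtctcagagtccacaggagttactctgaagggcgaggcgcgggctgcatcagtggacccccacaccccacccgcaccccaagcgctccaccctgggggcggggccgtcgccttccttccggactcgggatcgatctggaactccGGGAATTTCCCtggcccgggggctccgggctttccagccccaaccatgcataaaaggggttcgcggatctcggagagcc
CXCL2: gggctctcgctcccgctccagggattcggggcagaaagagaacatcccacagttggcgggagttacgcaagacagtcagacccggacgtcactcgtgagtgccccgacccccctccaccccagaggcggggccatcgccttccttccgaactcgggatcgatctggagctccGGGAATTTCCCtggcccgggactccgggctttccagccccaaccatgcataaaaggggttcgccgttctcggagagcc
IL6: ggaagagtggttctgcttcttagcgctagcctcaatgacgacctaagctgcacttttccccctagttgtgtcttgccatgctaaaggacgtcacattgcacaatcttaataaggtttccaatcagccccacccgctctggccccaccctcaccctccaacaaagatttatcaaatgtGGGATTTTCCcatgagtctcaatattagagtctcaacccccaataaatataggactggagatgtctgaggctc
NFKBIA: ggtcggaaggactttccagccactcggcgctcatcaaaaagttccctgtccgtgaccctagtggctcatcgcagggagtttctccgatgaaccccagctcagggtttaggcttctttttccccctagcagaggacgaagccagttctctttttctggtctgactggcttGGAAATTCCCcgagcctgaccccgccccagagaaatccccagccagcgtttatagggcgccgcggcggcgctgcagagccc
TNFAIP3: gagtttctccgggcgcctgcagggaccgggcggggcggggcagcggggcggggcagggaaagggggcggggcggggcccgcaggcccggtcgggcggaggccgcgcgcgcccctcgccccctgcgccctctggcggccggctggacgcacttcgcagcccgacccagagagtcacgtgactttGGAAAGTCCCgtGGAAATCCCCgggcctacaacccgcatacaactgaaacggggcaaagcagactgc
CXCL8: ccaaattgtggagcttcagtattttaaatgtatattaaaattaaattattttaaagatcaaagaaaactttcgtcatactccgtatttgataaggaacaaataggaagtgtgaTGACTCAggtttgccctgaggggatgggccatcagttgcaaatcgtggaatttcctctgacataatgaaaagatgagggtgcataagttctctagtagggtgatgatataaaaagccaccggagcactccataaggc

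The same 10 bases, GGGAATTTCC, stood in the promoters of CXCL1, CXCL2, CXCL3, CXCL5 and CXCL6, beginning 79, 78, 79, 91 and 90 bases before the start, and a second match on the other strand overlapped each by all but 1 base. IL6 carried GGGATTTTCC from 73 bases before the start. TNFAIP3 held 2 matches and NFKBIA 1, all on the minus strand of the window. By the kappaB consensus 15 of 31 promoters (48.4%) had a match, beside 9.57% of all 27305 promoters of the same length. AP-1 matches stood in IL1A, IL11 and CXCL8, 3 of 31 (9.68%) beside 6.6% of all promoters. Of the subunits, NFKB1 and REL held a consensus match and NFKB2 and RELA none, and TRAF1 held none. These are matches of letters, not tested sites. The genes were chosen as NF-kB targets, cytokines and chemokines, so a high share of kappaB matches is built into the list and tells nothing about these libraries.

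The tissue label was checked against its markers. The keratins KRT8 and KRT18 and the filament gene VIM were high in all 20 libraries. The basal airway markers KRT5 and TP63 had no read in 12 and 18 libraries, and the epithelial cadherin CDH1 had a median of 0.475 CPM (read counts scaled to library size, TMM-normalised, the unit of all levels below unless RPKM is named). Of the other keratins checked, KRT14 had no read in 10 libraries, while KRT17 was present in every library, at 14.2 to 505 CPM. Totals ran from 8609243 to 88848786 reads. Control_3D replicates 1 and 2 stood apart from replicates 3 and 4. A list of 10 luminal breast markers summed to 283 CPM in Ni_3D replicate 1 and 111 CPM in Control_3D replicate 1, against 7.59 to 29.0 CPM in the other 18 libraries, and the estrogen receptor ESR1 had no read in those 18. Ni_6W replicate 1 stood apart from Ni_6W replicate 2.

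Per length of transcript, the highest median level over the 20 libraries belonged to the mitochondrial superoxide dismutase SOD2 (293 RPKM), the monocyte chemokine CCL2 (240 RPKM) and the leukocyte adhesion molecule ICAM1 (190 RPKM). TNFAIP2, a tumour necrosis factor-induced gene, followed at 111 RPKM, then the neutrophil chemokines CXCL8 at 109 RPKM and CXCL1 at 88.0 RPKM, and the inhibitor NFKBIA at 70.5 RPKM. Among the subunits, RELA stood at 50.2 RPKM and REL, at 1.46 RPKM, was the lowest. The cytokine gene TNF itself was close to silent, with 132 reads over the 20 libraries, as were the prostaglandin synthase PTGS2 with 199 reads and the adhesion molecule VCAM1 with 18 reads, and VCAM1 had no read in 15 libraries. IL24, a cytokine of the interleukin-10 family, had a median of 0.411 RPKM. The highest group mean in CPM was 1.40 times the lowest for RELA, 1.48 times for NFKB1 and 1.38 times for REL, while it was 2.58 times for NFKB2 and 2.13 times for RELB. The highest group mean was at least 5 CPM and at least 4 times the lowest for 10 genes: IL6, CXCL2, CXCL6, LIF, IL1B, IL11, IL24, CSF2, TRAF1 and PTX3.

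**Figure D1:**
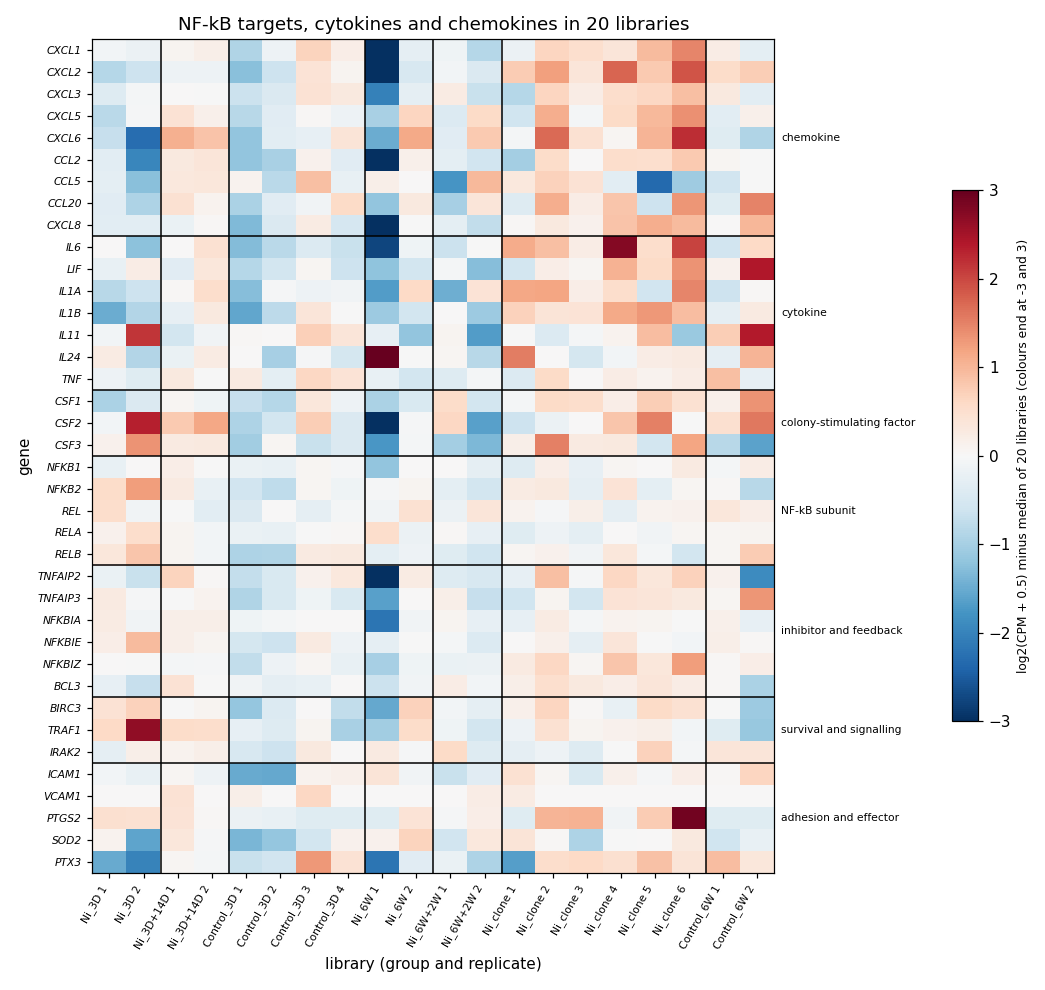
Level of each of the 38 genes (rows, by role) in each of the 20 libraries (columns, by group and replicate), as log2(CPM + 0.5) minus the median of that gene over the libraries; colours end at -3 and 3. The column of Ni_6W replicate 1 is low for CXCL1, CXCL8, CCL2, TNFAIP2 and NFKBIA and not for CCL5, and Ni_3D replicate 2 is high for TRAF1, NFKB2 and CSF2.

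After 3 days in nickel, TRAF1 and NFKB2 rose, and none of the 9 listed chemokines was called. TRAF1 encodes an adaptor of tumour necrosis factor receptors, on chromosome 9 at 123664671 to 123691451 (hg19). It had 30.1 and 127 CPM in the 2 Ni_3D libraries, against 16.4, 14.9, 20.8 and 9.71 CPM in the 4 Control_3D libraries. Both nickel libraries were above all controls, and replicate 2 was far above replicate 1. NFKB2, the p100 subunit of the non-canonical branch, on chromosome 10 at 104155353 to 104162286 (hg19), had 205 and 333 CPM in Ni_3D, against 92.6, 81.7, 144 and 126 CPM in Control_3D, again with no overlap. The log2 fold changes were 2.34 (SE 0.50) for TRAF1 and 1.29 (SE 0.28) for NFKB2, and adjusted p was 0.0287 and 0.0291 (quasi-likelihood test of edgeR, Benjamini-Hochberg adjustment over all genes).

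These were 2 of the 36 genes tested, while 2.83% of all genes tested rose in this comparison and 1.51% fell; VCAM1 and PTGS2 were too low to test. Of the 36, 21 had a positive log2 fold change (51.8% of all genes), and the median was 0.13 beside 0.03 for all genes. Those signs turned on the controls: without Control_3D replicates 1 and 2, 15 of 36 were positive with a median of -0.23, and without replicates 3 and 4, 29 of 35 with a median of 0.41. Both calls were lost under several alternatives. Without Ni_3D replicate 2 the log2 fold change of TRAF1 was 0.95 (adjusted p = 0.338) and that of NFKB2 0.88 (adjusted p = 0.22, both by edgeR). In the other alternatives that lost a call the fold changes stayed larger than these. TRAF1 missed the threshold without Control_3D replicate 2, 3 or 4 with log2 fold changes of 2.32, 2.50 and 2.17 (edgeR adjusted p = 0.0731, 0.0576 and 0.0639), and NFKB2 without Control_3D replicate 2 or 4 with 1.17 and 1.34 (edgeR adjusted p = 0.0728 and 0.0532). Without both Control_3D replicates 1 and 2 neither passed, with log2 fold changes of 2.33 for TRAF1 and 0.99 for NFKB2 (edgeR adjusted p = 0.056 and 0.0738). TRAF1 was also lost with no filter on low counts and with only the groups compared (edgeR adjusted p = 0.056 and 0.0528). Without Ni_3D replicate 1 and Control_3D replicate 1, the libraries with luminal breast transcripts, the log2 fold change was 3.04 for TRAF1 and 1.5 for NFKB2 (edgeR adjusted p = 0.0324 and 0.0811); the part of those transcripts in the result was not tested.

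Of the genes that did not pass in edgeR, DESeq2 called NFKBIE as higher and PTX3 as lower, beside TRAF1 and NFKB2. The share of all genes that DESeq2 called is not given here or below, so its counts cannot be read as particular to these genes. NFKBIE, the inhibitor IkB-epsilon, had 56.8 and 95.8 CPM in Ni_3D, against 33.9, 31.9, 59.2 and 44.0 CPM in Control_3D (log2 fold change 0.86, SE 0.26, edgeR adjusted p = 0.0686 and DESeq2 adjusted p = 0.0283, both after Benjamini-Hochberg adjustment). The groups overlapped by 1 control library. RELB, the partner of the NFKB2 product, had 123 and 174 CPM in Ni_3D, against 51.0, 52.4, 119 and 119 CPM in Control_3D (log2 fold change 0.81, SE 0.34, edgeR adjusted p = 0.163). Its log2 fold change was 0.31 with Control_3D replicates 1 and 2 left out, and 1.52 with replicates 3 and 4 left out (edgeR adjusted p = 0.453 and 0.0322). All 5 subunits had a positive log2 fold change, from 0.01 for NFKB1 to 1.29 for NFKB2. PTX3, a secreted pentraxin of innate defence, lay the other way, with 53.9 and 38.1 CPM in Ni_3D, against 96.6, 103, 379 and 210 CPM in Control_3D (log2 fold change -2.08, SE 0.63, edgeR adjusted p = 0.0746 and DESeq2 adjusted p = 0.0189). With PTX3 the nickel libraries were below every control. At an unadjusted p under 0.05 there were 7 genes above (13.1% of all genes) and 1 below (11.3%), and the libraries did not overlap for 7 genes higher (20% of all genes) and 1 lower (18.5%).

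The chemokines as a group gave no call. CXCL8 had 169 and 168 CPM in Ni_3D, against 83.1, 155, 251 and 147 CPM in Control_3D, where the nickel libraries lay inside the range of the controls. CXCL1 averaged 106 ± 5.39 CPM in Ni_3D (SD, n = 2) and 120 ± 50.7 CPM in Control_3D (SD, n = 4). CCL2 had 167 and 53.8 CPM in Ni_3D, against 92.6 to 229 CPM in Control_3D. Of the 9 chemokines 8 had a negative log2 fold change, from -1.08 for CXCL6 to -0.07 for CXCL5, and CXCL8 stood at 0.09 (SE 0.77). IL6 averaged 17.1 ± 10.2 CPM in Ni_3D (SD, n = 2) and 13.9 ± 3.45 CPM in Control_3D (SD, n = 4). NFKBIA averaged 135 ± 23.0 CPM in Ni_3D and 124 ± 5.46 CPM in Control_3D. TNFAIP3, which encodes a ubiquitin-editing enzyme that ends NF-kB signalling, averaged 86.4 ± 12.9 CPM in Ni_3D and 57.4 ± 12 CPM in Control_3D, and both nickel libraries were above all controls. None of these 6 passed (lowest edgeR adjusted p = 0.393, TNFAIP3, after Benjamini-Hochberg adjustment).

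Of the other genes of the pathway, MAP3K14, the kinase that starts the non-canonical branch, rose to 84.6 and 90.3 CPM in Ni_3D, against 52.9, 44.0, 32.6 and 33.5 CPM in Control_3D (log2 fold change 1.11, SE 0.27, edgeR adjusted p = 0.0429 after Benjamini-Hochberg adjustment). It was the only one called of 44 upstream signalling genes tested, whose median log2 fold change was -0.04, while 2.83% of all genes rose. Among 35 other NF-kB targets tested 2 rose and none fell, with a median of -0.01. These were CXCL16, a membrane-bound chemokine, with 60.2 and 73.6 CPM in Ni_3D, against 16.8, 16.7, 33.0 and 34.5 CPM in Control_3D (log2 fold change 1.42, SE 0.37, edgeR adjusted p = 0.0488), and IL23A, a subunit of interleukin-23, with 1.33 and 2.83 CPM in Ni_3D, against 0.312 to 0.774 CPM in Control_3D (log2 fold change 1.94, SE 0.48, edgeR adjusted p = 0.0416). Of 11 cytokine receptors tested none was called by edgeR, with 2 higher and 1 lower at an unadjusted p under 0.05 (13.1% and 11.3% of all genes). MAP3K14, CXCL16 and IL23A were not followed through the alternatives under which the calls of TRAF1 and NFKB2 were lost.

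**Figure D2:**
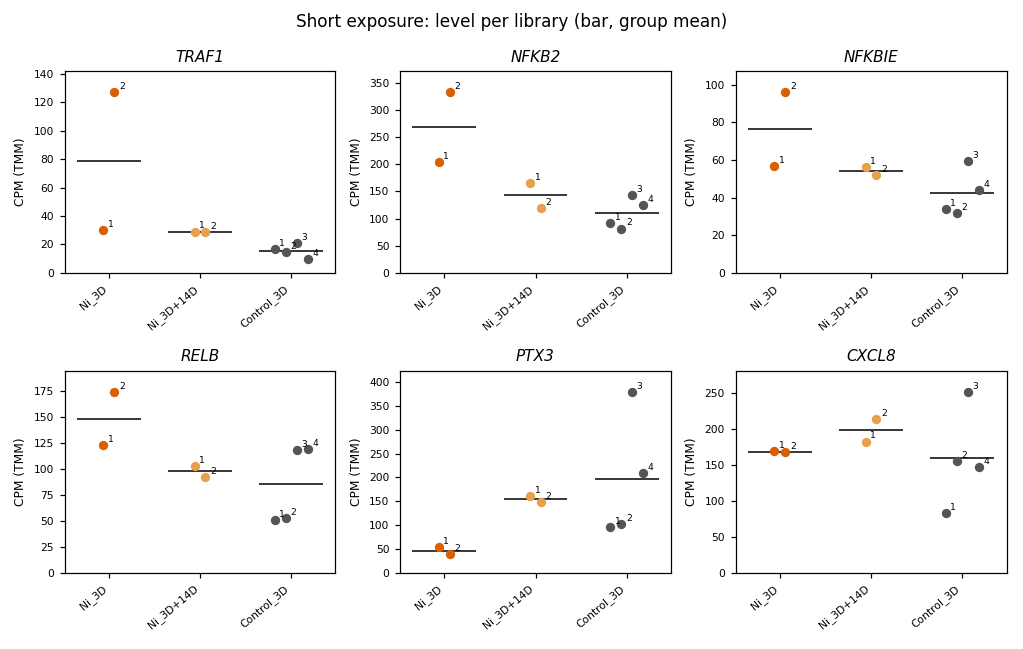
Level in CPM (vertical axis, from 0) of 6 genes in the libraries of the 3-day arm; each point is a library with its replicate number and each bar a group mean. TRAF1 and NFKB2 are above every control in both Ni_3D libraries, RELB and PTX3 differ between Control_3D replicates 1 and 2 and replicates 3 and 4, and CXCL8 in Ni_3D lies within the controls.

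In the libraries titled 14 days later TRAF1 had 29.0 and 28.4 CPM in Ni_3D+14D, against 9.71 to 20.8 CPM in Control_3D, and NFKB2 had 166 and 119 CPM in Ni_3D+14D, against 81.7 to 144 CPM in Control_3D. TRAF1 in the later libraries was above every control, and NFKB2 overlapped them. No gene of the 36 passed against Control_3D, where edgeR called 0% of all genes, DESeq2 called 0 of the 36 and 0 had an unadjusted p under 0.05 (2.60% of all genes higher and 1.51% lower). The log2 fold changes were 0.88 (SE 0.51) for TRAF1 and 0.36 (SE 0.29) for NFKB2. A positive sign was held by 33 of the 36, beside 49.6% of all genes, and the median was 0.37 beside -0.00 for all genes. That count moved with the controls: without Control_3D replicates 1 and 2, 22 of 36 were positive and the median was 0.08.

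IL6 had 24.0 and 32.9 CPM in Ni_3D+14D, against 9.43 to 17.7 CPM in Control_3D (log2 fold change 1.04, SE 0.58, edgeR adjusted p = 0.979). CCL2 had 256 and 269 CPM in Ni_3D+14D, against 92.6 to 229 CPM in Control_3D, and TNFAIP3 had 79.0 and 85.6 CPM in Ni_3D+14D, against 42.3 to 71.8 CPM in Control_3D. For these 3 genes, as for NFKBIA at 143 CPM in both Ni_3D+14D libraries against 117 to 129 CPM in Control_3D, the later libraries stood above all controls. CXCL8 had 182 and 214 CPM in Ni_3D+14D, against 83.1 to 251 CPM in Control_3D, and CXCL1 had 122 and 130 CPM in Ni_3D+14D, against 61.9 to 183 CPM in Control_3D; both overlapped. The libraries did not overlap for 10 of the 36 genes higher and 1 lower, beside 11.6% and 10.3% of all genes. Ni_3D and Ni_3D+14D are set against the same 4 controls.

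Set directly against Ni_3D, Ni_3D+14D gave no call in the 36 genes by edgeR, with 0.255% of all genes called, 4 of the 36 higher and 3 lower at an unadjusted p under 0.05 (6.10% and 6.47% of all genes) and 1 (CXCL6) called by DESeq2. CXCL6, a neutrophil chemokine, had 30.6 and 26.5 CPM in Ni_3D+14D, against 8.76 and 2.59 CPM in Ni_3D (log2 fold change 2.32, SE 0.80, edgeR adjusted p = 0.271 after Benjamini-Hochberg adjustment). PTX3 had 160 and 148 CPM in Ni_3D+14D, against 53.9 and 38.1 CPM in Ni_3D (1.73 on the log2 scale, SE 0.67, edgeR adjusted p = 0.321). For both genes the Ni_3D+14D libraries were above the Ni_3D ones without overlap, as they were for 16 of the 36 genes in all, with 8 below. The share over all genes is not given here, so these counts cannot be read as particular to these genes. TRAF1 and NFKB2 had log2 fold changes of -1.46 and -0.93 here, with edgeR adjusted p = 0.352 and 0.289. All 9 chemokines had a positive sign, from 0.22 to 2.32 on the log2 scale.

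After 6 weeks in nickel the 2 libraries did not give 1 level for most of these genes, and no gene passed. CXCL8 had 11.5 and 207 CPM in Ni_6W, against 213 and 422 CPM in Control_6W. CXCL1 had 5.57 and 95.2 CPM in Ni_6W, against 136 and 94.0 CPM in Control_6W. CCL2 had 16.7 and 233 CPM in Ni_6W, against 216 and 207 CPM in Control_6W. In each case replicate 1 was far below everything else and replicate 2 lay near or within the controls. The feedback inhibitor NFKBIA followed, with 27.4 and 119 CPM in Ni_6W, against 141 and 107 CPM in Control_6W, as did IL6, with 3.14 and 21.8 CPM in Ni_6W, against 15.8 and 36.3 CPM in Control_6W. TNFAIP2 had 50.6 and 611 CPM in Ni_6W, against 572 and 139 CPM in Control_6W, so for this gene the second control was low as well.

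Ni_6W replicate 1 was the lowest of all 20 libraries for 19 of the 37 genes that could be ranked, beside 17.1% of all genes. Against replicate 2 it was lower for 30 of 37 and more than 2-fold lower for 19, beside 9.58% of all genes, with a median log2 difference of -1.20 for these genes and 0.00 for all genes. The differences were 18.0-fold for CXCL8, 17.1-fold for CXCL1, 13.9-fold for CCL2, 12.1-fold for TNFAIP2 and 4.33-fold for NFKBIA. CSF2, which encodes the granulocyte-macrophage factor, had 0.261 CPM (6 reads) in replicate 1 and 10.8 CPM in replicate 2. The subunits were uneven in this: NFKB1 had 38.0 CPM in replicate 1 and 87.8 CPM in replicate 2, while NFKB2 had 136 and 146 CPM, RELB 79.3 and 87.7 CPM, and RELA 214 and 133 CPM in the same order. ICAM1 was also not low in replicate 1, with 916 and 651 CPM. IL24 went the other way, with 30.8 CPM in replicate 1 and 0.880 CPM in replicate 2, against 0.196 to 3.48 CPM in the 18 libraries of the other groups. The level of 12 immune cell markers summed to 117 CPM in Ni_6W replicate 1 and 33.2 to 75.6 CPM in the other 19 libraries; CD14 (34 CPM) and CD68 (81.7 CPM) made up that sum and 9 of the 12 had no read there, and their part in the result was not tested. In bulk libraries fewer cells of a type and less RNA per cell cannot be told apart.

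Over both libraries, edgeR called 0 of 36 genes in Ni_6W against Control_6W, where it called 2.47% of all genes. At an unadjusted p under 0.05 there were 1 above and 7 below (14.5% and 12.1% of all genes), and DESeq2 called 6 (LIF, CSF1, IL11, TNFAIP3 and CXCL2 as lower, IL24 as higher). A negative sign was held by 24 of 36, beside 47.7% of all genes, and the median was -0.59 beside 0.03. Libraries did not overlap for 13 genes lower and 2 higher, beside 22.7% and 24.4% of all genes. LIF, a cytokine of the interleukin-6 family, came nearest, with 30.0 and 47.1 CPM in Ni_6W, against 76.0 and 370 CPM in Control_6W (log2 fold change -2.53, SE 0.64, edgeR adjusted p = 0.0539 after Benjamini-Hochberg adjustment). Its relative IL11 had 15.5 and 8.01 CPM in Ni_6W, against 31.4 and 99.8 CPM in Control_6W (-2.46 on the log2 scale, SE 0.78, edgeR adjusted p = 0.0868). CSF1, the macrophage growth factor, had 68.1 and 96.6 CPM in Ni_6W, against 148 and 340 CPM in Control_6W, and TNFAIP3 had 25.2 and 79.2 CPM in Ni_6W, against 82.1 and 199 CPM in Control_6W. For these 4 genes the nickel libraries were below both controls, and Control_6W replicate 2 was 2.30 to 4.86 times replicate 1.

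The size of the changes turned on which library was kept. Without Ni_6W replicate 2 the log2 fold changes were -4.79 for CXCL8 and -2.18 for NFKBIA. Without Ni_6W replicate 1 the same values were -0.62 and -0.07. LIF had a log2 fold change of -3.27 without Control_6W replicate 1 and -0.99 without Control_6W replicate 2. A group of 1 library has no spread of its own there and was assumed to vary like the others, so only fold changes are given here. Of the other lists, 1 target fell by the full fit: MYC, a growth transcription factor, had 43.3 and 57.0 CPM in Ni_6W, against 184 and 573 CPM in Control_6W (log2 fold change -2.92, SE 0.53, edgeR adjusted p = 0.0497). None of 44 upstream signalling genes and 11 cytokine receptors was called by edgeR, with 9 and 3 at an unadjusted p under 0.05 (14.5% of all genes higher and 12.1% lower).

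**Figure D3:**
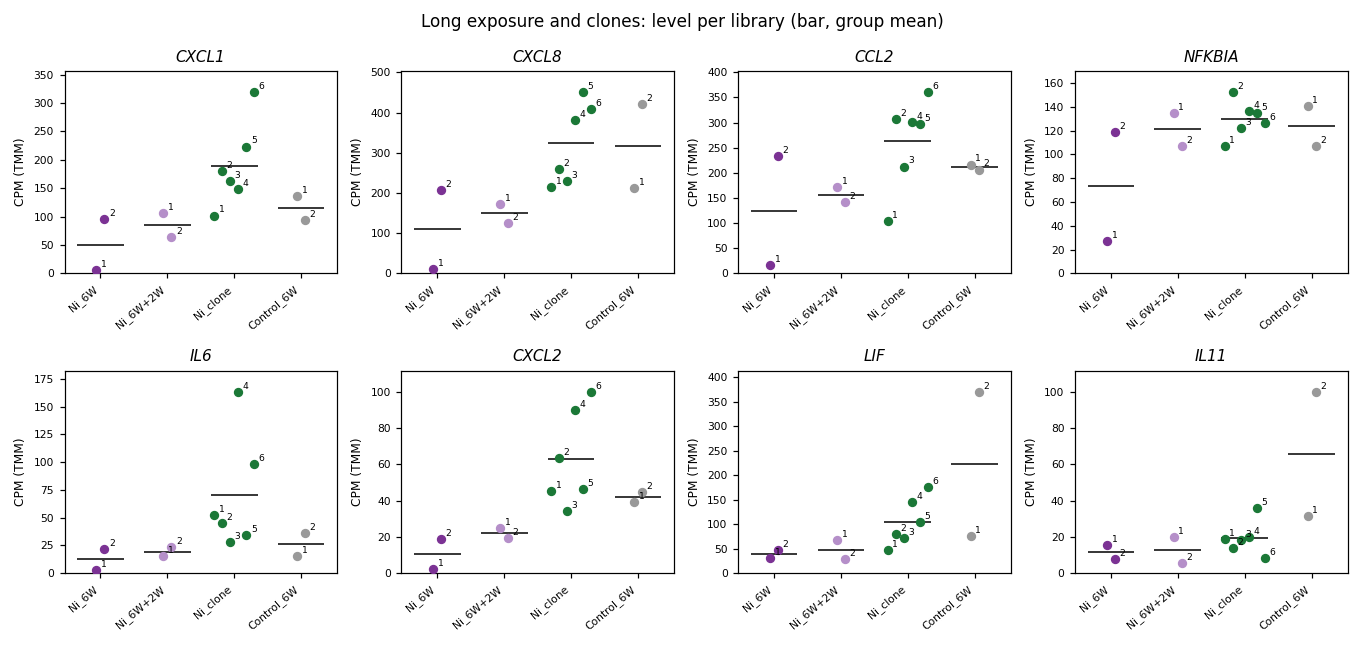
Level in CPM (vertical axis, from 0) of 8 genes in the libraries of the 6-week arm; each point is a library or clone with its replicate number and each bar a group mean. Ni_6W replicate 1 is near 0 for CXCL1, CXCL8 and CCL2, the clones spread above the washed cells for CXCL8, CXCL2 and IL6, and Control_6W replicate 2 is the high point of LIF and IL11.

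In the washed cells 6 weeks of nickel had been followed by 2 weeks without it, and no gene passed against the controls. CXCL8 had 173 and 126 CPM in Ni_6W+2W, against 213 and 422 CPM in Control_6W, and CXCL1 had 106 and 63.8 CPM in Ni_6W+2W, against 136 and 94.0 CPM in Control_6W. NFKBIA averaged 121 ± 19.6 CPM in Ni_6W+2W and 124 ± 23.9 CPM in Control_6W (SD, n = 2 each), a difference within the spread. LIF had 66.9 and 28.5 CPM in Ni_6W+2W, against 76.0 and 370 CPM in Control_6W (log2 fold change -2.22, SE 0.63, edgeR adjusted p = 0.256 after Benjamini-Hochberg adjustment). LIF did not overlap between the groups, and this held for 11 genes lower and 1 higher (20.4% and 23.8% of all genes). ICAM1 had 443 and 555 CPM in Ni_6W+2W, against 722 and 1097 CPM in Control_6W, and RELB had 75.7 and 64.1 CPM in Ni_6W+2W, against 101 and 166 CPM in Control_6W, both without overlap. Of the 36 genes edgeR called 0, as it did for 0% of all genes; 3 (LIF, IL11 and RELB, each lower) had an unadjusted p under 0.05 (6.24% of all genes, with 6.87% higher) and DESeq2 called 1, LIF. A negative sign was held by 27 of 36 (48.4% of all genes), with a median of -0.32 beside 0.01. With 1 library left out, the log2 fold change of LIF ran from -2.97 without Ni_6W+2W replicate 1 to -0.68 without Control_6W replicate 2. Ni_6W, Ni_6W+2W and the clones share the same 2 controls, so their values against Control_6W are not independent.

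Washed against exposed, no gene of 36 passed by edgeR (0% of all genes), 1 (IL24, lower) had an unadjusted p under 0.05 (3.97% of all genes, with 2.61% higher) and DESeq2 called 0. IL24 had 0.949 and 0.277 CPM in Ni_6W+2W, against 30.8 and 0.880 CPM in Ni_6W. CCL2 had 171 and 141 CPM in Ni_6W+2W, against 16.7 and 233 CPM in Ni_6W, so the washed libraries lay between the exposed ones. With each library left out, the log2 fold change of IL24 ran from -5.84 to -0.49, the latter without Ni_6W replicate 1.

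Most cytokines and chemokines were measured at higher levels in the nickel-derived clones than in the washed uncloned cells, though none passed. The 6 clones had 34.1 to 99.8 CPM of CXCL2 (median 54.8), against 25.0 and 19.5 CPM in Ni_6W+2W. CXCL8 ran from 215 to 450 CPM in the clones (median 319), against 173 and 126 CPM in Ni_6W+2W, and IL6 from 28.1 to 163 CPM (median 48.9) in the clones, against 15.2 and 23.7 CPM in Ni_6W+2W. Every clone was above both washed libraries for these 3 genes. IL1B, the secreted interleukin-1, ran from 30.9 to 59.0 CPM in the clones (median 41.8), against 23.7 and 10.8 CPM in Ni_6W+2W, again without overlap. CXCL1 overlapped, with 102 to 318 CPM in the clones and 106 and 63.8 CPM in Ni_6W+2W. NFKBIA averaged 130 ± 15.1 CPM in the clones (SD, n = 6) and 121 ± 19.6 CPM in Ni_6W+2W (SD, n = 2), a difference inside the spread, and TNFAIP3 82.2 ± 23.9 CPM in the clones and 69.5 ± 28.9 CPM in Ni_6W+2W.

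Of 36 genes tested, 32 had a positive log2 fold change in the clones against Ni_6W+2W, beside 49.2% of all genes, with a median of 0.58 beside -0.00. No gene passed by edgeR, which called 0.0280% of all genes; 12 genes above and 0 below had an unadjusted p under 0.05 (3.36% and 3.24% of all genes), and DESeq2 called 4 (CSF3, CXCL2, CXCL8 and IL1B, all higher). For 8 genes every clone was above both washed libraries (4.0% of all genes, with 4.64% below): IL6, CXCL2, CXCL8, IL1B, CSF3, TNFAIP2, NFKBIZ and NFKB2. The log2 fold changes were 1.85 (SE 0.70) for IL6, 1.5 (SE 0.42) for CXCL2, 1.31 (SE 0.34) for IL1B and 1.11 (SE 0.31) for CXCL8, with edgeR adjusted p = 0.722, 0.706, 0.687 and 0.706 after Benjamini-Hochberg adjustment. CSF3, the granulocyte factor, had 1.06 to 5.96 CPM in the clones, against 0.612 and 0.396 CPM in Ni_6W+2W (2.57 on the log2 scale, SE 0.69, edgeR adjusted p = 0.687). Leaving out any 1 library gave no call. Among the other lists none of 45 upstream genes, 35 other targets and 11 receptors was called by edgeR, with 4, 8 and 1 at an unadjusted p under 0.05.

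Against the 6-week controls the clones were mixed. CXCL8 averaged 324 ± 101 CPM in the clones (SD, n = 6) and 317 ± 148 CPM in Control_6W (SD, n = 2), and CCL2 263 ± 91.4 CPM in the clones and 212 ± 7.01 CPM in Control_6W. The clones overlapped the controls in both. TRAF1 ran from 17.7 to 27.1 CPM in the clones (median 21.1), against 15.1 and 8.63 CPM in Control_6W (log2 fold change 0.86, SE 0.24, edgeR adjusted p = 0.0652 after Benjamini-Hochberg adjustment). IL11 ran from 8.34 to 35.8 CPM in the clones (median 18.4), against 31.4 and 99.8 CPM in Control_6W (-1.75 on the log2 scale, SE 0.48, edgeR adjusted p = 0.0669). TRAF1 was above both controls in every clone, and IL11 was below both in all clones but clone 5. PTGS2 had no read in either control and 0 to 74 reads in the clones, and no fold change is given for it.

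No gene of the 37 tested passed by edgeR, which called 5.26% of all genes; 7 above and 1 below had an unadjusted p under 0.05 (13.3% and 11.9% of all genes), and DESeq2 called 6 (BCL3, CSF3, IL1B, PTGS2 and TRAF1 higher, IL11 lower). Every clone was above both controls for 5 genes and below both for 2 (11.6% and 12.5% of all genes). A positive sign was held by 21 of 37 (51.4% of all genes), with a median of 0.25 beside 0.01. Without clone 5 edgeR called CSF3 and IL11. The log2 fold change of TRAF1 was 1.32 without Control_6W replicate 1 and 0.51 without Control_6W replicate 2. That of IL11 was -2.37 and -0.70 in the same order. Of the upstream genes 2 of 45 fell: TNFRSF12A, a receptor of the tumour necrosis factor family, had 210 to 333 CPM in the clones, against 395 and 779 CPM in Control_6W (log2 fold change -1.17, SE 0.23, edgeR adjusted p = 0.0246), and CARD10, a scaffold of receptor signalling, had 36.3 to 48.7 CPM in the clones, against 55.0 and 117 CPM in Control_6W (-1.03 on the log2 scale, SE 0.23, edgeR adjusted p = 0.0368). Of 35 other targets 1 fell, the kinase PLK3, with 7.33 to 12.4 CPM in the clones, against 12.7 and 43.6 CPM in Control_6W (-1.46, SE 0.36, edgeR adjusted p = 0.0465).

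The 6 clones differed from each other more in these genes than in most. The median SD of log2(CPM + 0.5) over the clones was 0.46 for 37 of these genes and 0.23 for all genes. IL6 reached 163 CPM in clone 4 and 98.1 CPM in clone 6, beside 28.1 CPM in clone 3. CXCL6 reached 69.0 CPM in clone 6 and 48.3 CPM in clone 2, beside 13.9 CPM in clone 1. CXCL1 was likewise highest in clone 6, at 318 CPM, and lowest in clone 1, at 102 CPM. Clone 6 was the highest clone for 13 of 37 genes, beside 18.6% of all genes, and clone 1 the lowest for 19 of 37, beside 25.2% of all genes. CSF2 ran from 6.97 CPM in clone 1 to 32.6 CPM in clone 5. The inhibitor NFKBIA was even, between 107 and 152 CPM. Wide scatter was not limited to the clones. The SD of log2 CPM in the 4 Control_3D libraries was 0.66 for CXCL1 (0.56 in the clones), 0.75 for CSF2 (0.81 in the clones) and 0.68 for CXCL6 (0.93 in the clones). For IL6 it was 0.38 in Control_3D and 0.96 in the clones, and for NFKBIA 0.064 and 0.17 in the same order. Each clone is 1 library, so these are descriptions with no test.

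**Figure D4:**
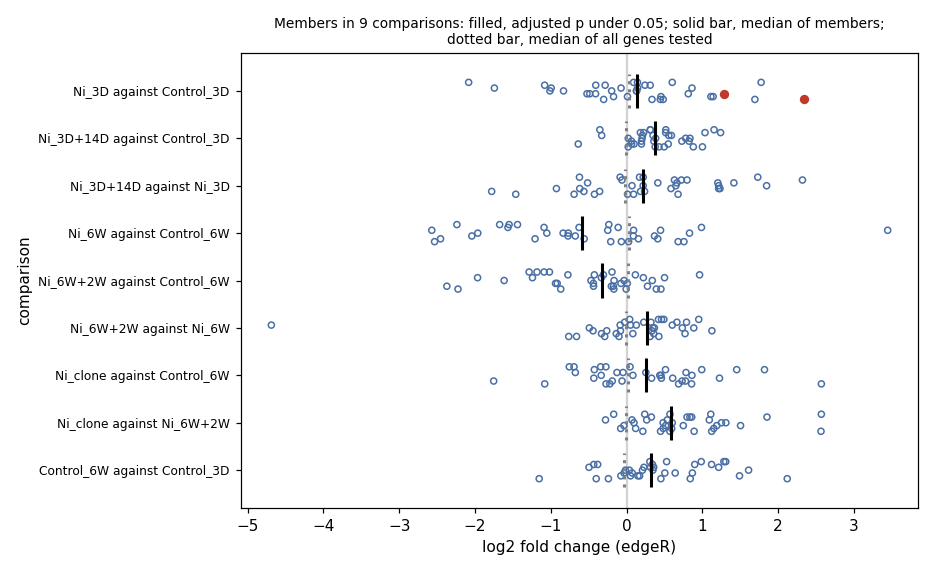
log2 fold change by edgeR (horizontal axis) of each gene tested in 9 comparisons (rows); filled points have an adjusted p under 0.05, solid bars are medians of these genes and dotted bars medians of all genes tested, and PTGS2 is left out of Ni_clone against Control_6W, where the controls have no read. The filled points are TRAF1 and NFKB2 in Ni_3D; the median is lowest in Ni_6W (-0.59) and highest in the clones against Ni_6W+2W (0.58).

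The unexposed cells were themselves uneven for these genes. ICAM1 had 243 CPM in each of Control_3D replicates 1 and 2, and 758 and 774 CPM in replicates 3 and 4. PTX3 had 96.6 and 103 CPM in the first pair, and 379 and 210 CPM in the second. Both of replicates 1 and 2 were below both of replicates 3 and 4 for 25 of 37 genes (28.4% of all genes), ICAM1, RELB, CCL2, CXCL1, CXCL2 and IL6 among them, and above for 1 (30.6% of all genes). Against replicate 3, replicate 1 was lower for 34 of 37 genes and more than 2-fold lower for 13, beside 2.38% of all genes. With replicates 3 and 4 left out, ICAM1 and RELB joined NFKB2 as called in Ni_3D against Control_3D, and TRAF1 missed the threshold; with replicates 1 and 2 left out, PTX3 was the 1 gene called there, as lower.

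Control_6W against Control_3D gave no call by edgeR (0% of all genes), with 4 of 36 genes at an unadjusted p under 0.05 (LIF, TNFAIP3, CSF1 and IL11, all higher, beside 3.85% of all genes higher and 4.46% lower) and 1 (LIF) called by DESeq2. LIF had 76.0 and 370 CPM in Control_6W, against 38.5, 47.3, 72.5 and 45.3 CPM in Control_3D. The higher value is Control_6W replicate 2. The log2 fold change of LIF was 2.86 without Control_6W replicate 1 and 0.58 without Control_6W replicate 2. The 27 of 36 genes with a positive sign stand beside 46.4% of all genes. CXCL8 averaged 317 ± 148 CPM in Control_6W (SD, n = 2) and 159 ± 69.3 CPM in Control_3D (SD, n = 4), and NFKBIA 124 ± 23.9 CPM in Control_6W and 124 ± 5.46 CPM in Control_3D.

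The response to the long exposure was set against that to the short one as a single contrast, Ni_6W over Control_6W minus Ni_3D over Control_3D. By edgeR 0 of 36 genes passed (0% of all genes), 7 had an unadjusted p under 0.05, all negative (6.00% of all genes, with 4.92% positive), and DESeq2 called 1 (LIF). The median was -0.84 beside 0.04 for all genes, and 27 of 36 genes were negative (47.0% of all genes). TNFAIP3 had a difference of -2.04 (SE 0.65, edgeR adjusted p = 0.316 after Benjamini-Hochberg adjustment), TRAF1 one of -1.66 (SE 0.80, edgeR adjusted p = 0.474) and NFKB2 one of -0.92 (SE 0.44, edgeR adjusted p = 0.47). For the 2 genes called as higher at 3 days the difference between exposures did not pass. In the 6-week arm TRAF1 had 9.36 and 29.1 CPM in Ni_6W, against 15.1 and 8.63 CPM in Control_6W, and NFKB2 had 136 and 146 CPM in Ni_6W, against 142 and 77.2 CPM in Control_6W. The difference of TNFAIP3 was -3.07 without Ni_6W replicate 2 and -1.24 without Control_6W replicate 2. That of LIF was -3.73 without Control_6W replicate 1 and -1.45 without Control_6W replicate 2.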

How the data were processed

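RNA from BEAS-2B cells was made into libraries with a TruSeq RNA kit, according to the labels' protocols. The authors deposited raw read counts per RefSeq gene for every library, on hg19 coordinates, with RPKM values, scaled to transcript length and library size, beside them, per the file headers. STAR 2.4, DESeq and DESeq2 are listed without roles, per the submitters' processing notes; strand use in counting is not given in the sources used here. The authors' comparison tables were not used here.

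Counts of the 20 libraries were joined by RefSeq identifier, since a spreadsheet had changed 28 symbols. No 2 libraries of a group were alike within counting error. A mean per group was fitted to the 14 libraries other than clones in edgeR 4.0.16 (R 4.3.3), with TMM normalisation, filterByExpr (min.count 10, min.total.count 15), the robust quasi-likelihood test, and Benjamini-Hochberg adjustment over all genes tested. A gene was called at an adjusted p under 0.05. Clones were fitted with Control_6W only or with Ni_6W+2W only. The biological coefficient of variation was 29.7%, 24.7% and 24.8% in those 3 fits. The alternatives comprised no filter, RLE size factors, DESeq2 1.42.0, other sets of libraries, a replicate block and leaving out each library. The procedure was tested on simulated data.

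Members and lists were chosen with earlier results of these data known. Called genes were named in each comparison, IL6, CXCL8, CXCL1, CCL2, NFKBIA and TNFAIP3 wherever values are given, genes of at least 5 CPM that varied at least 4-fold between group means by library, and up to 4 called genes of other lists; further genes were chosen after their values were seen. Depth was 8609243 to 88848786 reads, and genes with few reads (TNF, PTGS2, VCAM1) carry large counting errors.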

Additional observations from a re-analysis of the deposited data

Results flagged for a closer look

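Of 76 sets of 4 or 6 libraries, 6 held a library far from the others of its group. Chance flags about 1 in 20 such sets where levels are normally distributed. That was not checked for these CPM, and some of the genes are close to 0. Clone 1 had 48.5 CPM of PTX3, against 201 CPM in the next lowest clone. It also had 3.48 CPM of IL24 and 0.0917 CPM of VCAM1 (2 reads), where the other clones had at most 1.16 CPM of IL24 and no read of VCAM1. Clone 5 had 21.5 CPM of IRAK2, a kinase of interleukin-1 receptor signalling, against 12.9 CPM in the next clone. Clone 6 had 4.29 CPM of PTGS2, from 74 reads, against 0.815 CPM in the next clone. Control_3D replicate 1 had 0.958 CPM of IL1A, the membrane-held interleukin-1, against 2.71 CPM in the next lowest control.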

How the results depend on the processing

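Genes of the other lists, such as MAP3K14 and MYC, were not followed through the alternatives. Under RLE size factors every count of members called and every named log2 fold change of a member kept its direction and its side of the threshold. DESeq2 called 4 of these genes in Ni_3D, 1 in Ni_3D+14D against Ni_3D, 6 in Ni_6W, 1 in Ni_6W+2W against Control_6W, 6 in the clones against Control_6W, 4 against Ni_6W+2W, 1 in Control_6W and 1 in the long minus short contrast. Its share over all genes is not given beside these counts. In Ni_3D, 1 gene was called with no filter and with only the groups compared (NFKB2 kept, TRAF1 lost), 1 without Control_3D replicates 1 and 2 (PTX3, with both lost), and 1 without the 2 libraries with luminal transcripts (TRAF1 kept, NFKB2 lost). With only the groups compared 1 (PTX3) was called in Ni_3D+14D against Ni_3D. Without Control_3D replicates 3 and 4, 2 were called in Control_6W and 1 in the long minus short contrast. Leaving out each library gave 0 to 2 calls in Ni_3D, 0 to 14 in Ni_6W, 0 to 1 in Ni_6W+2W against Control_6W, 0 to 9 against Ni_6W, 0 to 6 in the clones against Control_6W, 0 to 1 in Control_6W and 0 to 6 in the long minus short contrast. The highest counts in Ni_6W, in Ni_6W+2W against Ni_6W and in the long minus short contrast came without Ni_6W replicate 2. The other highest counts, except in Ni_3D, came without Control_6W replicate 1. Either omission leaves a group of 1 library, with no spread of its own. In each comparison the fit with the highest count also gave the most calls over all genes. These counts therefore cannot be read as particular to these genes.

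The labels do not say whether a shared replicate number pairs libraries, and with fewer than 3 pairs per contrast this was not settled here. Replicate 1 of Control_3D and replicate 1 of Ni_3D do share the luminal breast transcripts. With the replicate block 1 gene (RELB) was called in Ni_3D, where TRAF1 and NFKB2 were lost (edgeR adjusted p = 0.139 and 0.0572), 2 in Control_6W and 1 in the long minus short contrast. The block turned the log2 fold change of CCL2 to 0.21 and CXCL1 to 0.41 in Ni_3D, of CCL2 to -0.22 and CXCL8 to -0.32 in the clones against Control_6W, and of TNFAIP3 to -0.0069 against Ni_6W+2W.

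Other log2 fold changes turned sign as well, and the cause was not tested. Without Control_3D replicates 1 and 2, CXCL8 stood at -0.25 in Ni_3D, and at -0.018 in Ni_3D+14D with CXCL1 at -0.33. Without replicates 3 and 4, CCL2 stood at 0.15 and CXCL1 at 0.34 in Ni_3D. Without the 2 libraries with luminal transcripts, CXCL8 stood at -0.15, IL6 at -0.65 and NFKBIA at -0.10 in Ni_3D, and CXCL1 at -0.16 in Ni_3D+14D. Leaving out each library, in Ni_3D CCL2 ran from -1.47 to 0.17, CXCL1 from -0.41 to 0.085, CXCL8 from -0.14 to 0.38, IL6 from -0.50 to 0.80 and NFKBIA from -0.074 to 0.28, and in Ni_3D+14D CXCL1 from -0.16 to 0.33. In Ni_6W CCL2 ran from -3.67 to 0.13 and IL24 from -0.75 to 4.58, and in Ni_6W+2W against Control_6W IL6 from -0.91 to 0.30 and NFKBIA from -0.22 to 0.18. In the clones CXCL8 ran from -0.37 to 0.61, NFKBIA from -0.11 to 0.30 and TNFAIP3 from -1.26 to 0.0096 against Control_6W, and NFKBIA from -0.053 to 0.26 and TNFAIP3 from -0.13 to 0.73 against Ni_6W+2W. On simulated data the share of 2-fold and 4-fold changes recovered was 26.9% and 68.7% in Ni_3D against Control_3D, 14.9% and 58.2% in Ni_6W against Control_6W, and 50.7% and 86.6% in the clones against Ni_6W+2W. Those changes were planted in genes drawn at random from all that passed the filter. Among the clones the members scattered more than all genes (median SD of log2(CPM + 0.5) 0.46 beside 0.23). The shares recovered therefore need not hold for these genes.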
